A study of Mus musculus with 20 samples.

Results

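*Serpinb7*, *Cxcl12*, *Cpm*, *Kit* and *Ceacam1* are 5 of the 31130 genes measured in 20 mRNA libraries of mouse nephron progenitor cells (NPCs), the *Six2*-expressing mesenchyme from which nephrons form. They were picked because their levels in high CHIR were higher after loss of cell adhesion than in CTRL, so these high CHIR levels are given as description only. Each gene was found by its Ensembl identifier (ENSMUSG00000067001, ENSMUSG00000061353, ENSMUSG00000020183, ENSMUSG00000005672 and ENSMUSG00000074272, in the same order), and 5 of 5 passed the filter on low values (a mean normalized count of at least 10). *Serpinb7* passed it only through groups other than CTRL, α-catenin KO and QCKO in low CHIR, where it was at or near 0.

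Primary NPCs were isolated from embryonic kidneys at day 16.5, and all groups, CTRL included, carried Cas9-eGFP. Guide RNAs were delivered by lipofection with an mCherry reporter, and mCherry+ cells were sorted. The knockout period of 48 h was followed by 24 h with CHIR, at 1.25 µM (low CHIR) or at 5 µM (high CHIR). The compound blocks the kinase GSK3β, which marks β-catenin for degradation, so that high CHIR mimics a strong Wnt signal. CTRL cells received a guide against GFP (3 libraries in each CHIR condition), α-catenin KO cells a guide against *Ctnna1* (2 libraries each), QCKO cells guides against *Cdh2*, *Cdh3*, *Cdh4* and *Cdh11* together (2 libraries each), and β-catenin KO cells guides against *Ctnnb1* (3 libraries each). The knockouts are pools of transfected cells and not clones, so edited and unedited cells can be mixed in each library. By staining, the study reports loss of most or all of the targeted α-catenin and cadherin proteins. A replicate number stands for a date in the sample titles that is shared between groups. The study describes its libraries as biological replicates, and the titles do not say which animals or cultures lie behind a number, so p-values measure the spread between these libraries.

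The proteins of the 5 genes act at or outside the cell surface, apart from *Serpinb7*. *Cxcl12* encodes a secreted chemokine that binds the receptors Cxcr4 and Ackr3 and guides migrating cells in many embryonic tissues. *Kit* encodes the receptor tyrosine kinase for stem cell factor, the product of *Kitl*. *Cpm* encodes carboxypeptidase M, a membrane-anchored enzyme that trims basic residues from the ends of peptides such as kinins. *Ceacam1* encodes an immunoglobulin-type adhesion molecule that binds its own kind on neighbouring cells. *Serpinb7* belongs to the intracellular, ovalbumin-type serpins, and is also known as megsin from its expression in kidney mesangial cells. Cadherins bind cells to each other, and β-catenin links them to α-catenin and actin, while β-catenin also carries the Wnt signal to TCF/LEF factors in the nucleus.

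Libraries held between 18124772 and 28472412 reads counted to genes, with a median of 21449823. *Ctnna1* in α-catenin KO was at 40.4% of the CTRL mean in low CHIR and 47.4% in high CHIR. In QCKO, *Cdh11* was at 50.0% and 40.2% of CTRL and *Cdh2* at 63.5% and 77.0%, whereas *Cdh3* (127% and 104%) and *Cdh4* (95.2% and 105%) were near CTRL. A guide that disrupts the protein need not lower the mRNA. *Ctnnb1* is not paired with an identifier in the tables used and was not checked. The NPC label was checked on *Six2*, at 943 to 1642 in CTRL in low CHIR and 64.1 to 83.8 in high CHIR. The replicates of β-catenin KO in low CHIR were not alike. *Wnt4*, a Wnt-induced gene of the early nephron, was at 30.1 in replicate 1, below the CTRL range of 41.1 to 72.6. It was at 831 and 634 in replicates 2 and 3, far above that range. In high CHIR *Wnt4* was at 252 in replicate 1, 2387 in replicate 2 and 1200 in replicate 3, against 4156 to 5401 in CTRL. Results for β-catenin KO are also given without replicate 1.

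**Figure D1:**
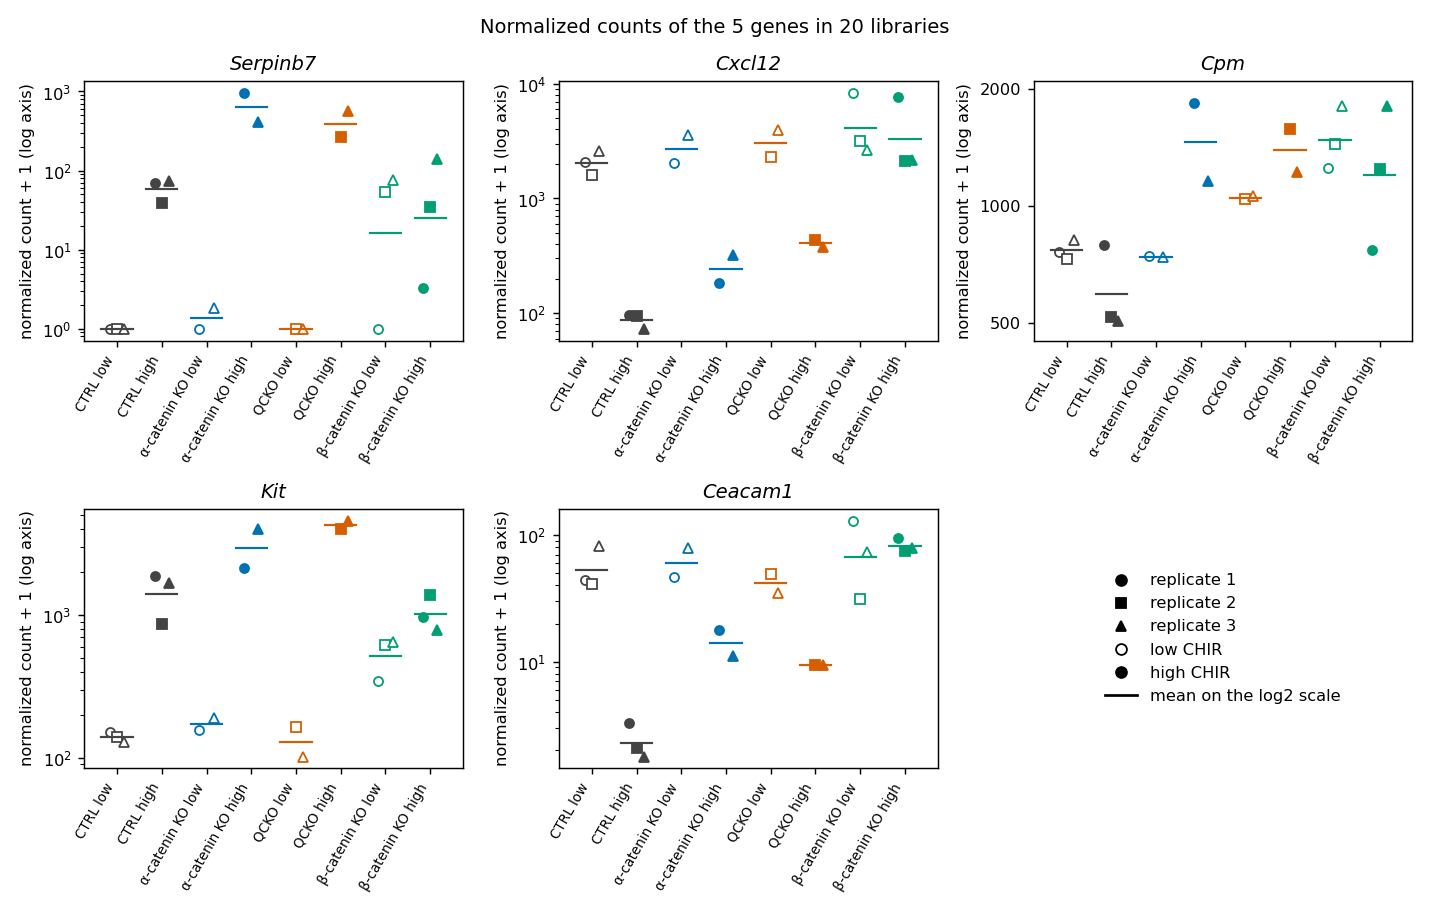
Normalized count plus 1 (log axis) of each gene in the 20 libraries, by group. Symbols give the replicate number, open symbols are low CHIR, filled symbols are high CHIR, and lines are means on the log2 scale of 2 or 3 libraries. *Cxcl12* and *Ceacam1* were lowest in CTRL in high CHIR, and *Serpinb7* and *Kit* were highest in the high CHIR libraries of α-catenin KO and QCKO.

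In CTRL, the genes differed in how they answered high CHIR, and these values share the CTRL high CHIR libraries with the choice of the genes. *Serpinb7* had no read in any of the 3 CTRL libraries in low CHIR and normalized counts of 68.0, 37.4 and 72.9 in high CHIR. Against a floor of 3 reads per library, its mean was at least 19.6-fold higher in high CHIR. *Kit* was at 152, 140 and 129 in low CHIR and at 1877, 863 and 1670 in high CHIR, a log2 difference of 3.31 (SE 0.31). Both genes were thus higher in every high CHIR library, as were 13% of the 16516 genes.

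*Cxcl12* and *Ceacam1* ran the opposite way. In low CHIR, *Cxcl12* had counts of 2089, 1602 and 2594, which compared with 95.3, 92.9 and 72.1 in high CHIR, a log2 difference of -4.56 (SE 0.29). *Ceacam1* had counts of 42.8, 40.1 and 81.5 in low CHIR but only 2.27, 1.07 and 0.784 in high CHIR, which are 2, 1 and 1 reads. *Cpm* was at 759, 730 and 816 in low CHIR and at 795, 517 and 505 in high CHIR, so that its ranges overlapped. Of all genes tested, 13.1% were lower in every high CHIR library, as *Cxcl12* and *Ceacam1* were.

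The promoters of the 4 genes that differed with CHIR in CTRL are shown because high CHIR stabilizes β-catenin, whose TCF/LEF partners bind the motif CTTTGAT. Each is the 250 bases before a RefSeq start site in GRCm38.p6, read on the strand of the gene, with matches to CTTTGAT or its reverse complement ATCAAAG in capitals. These 2 spellings are 1 motif on both strands, and no other motif was searched. *Cxcl12* lies on chromosome 6 from 117168535 to 117181368 (window chr6:117168285-117168534, plus strand). *Ceacam1* lies on chromosome 7 from 25461702 to 25477647 (window chr7:25477626-25477875, minus strand). Its window precedes a start site inside the stated span, so the window and the span overlap. *Serpinb7* lies on chromosome 1 from 107422689 to 107452689 (window chr1:107422439-107422688, plus strand). *Kit* lies on chromosome 5 from 75574987 to 75656722 (window chr5:75574737-75574986, plus strand).
Cxcl12: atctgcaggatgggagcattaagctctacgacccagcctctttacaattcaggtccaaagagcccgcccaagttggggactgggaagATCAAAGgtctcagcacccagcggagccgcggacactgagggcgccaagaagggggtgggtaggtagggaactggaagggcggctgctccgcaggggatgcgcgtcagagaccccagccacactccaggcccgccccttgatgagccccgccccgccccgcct
Ceacam1: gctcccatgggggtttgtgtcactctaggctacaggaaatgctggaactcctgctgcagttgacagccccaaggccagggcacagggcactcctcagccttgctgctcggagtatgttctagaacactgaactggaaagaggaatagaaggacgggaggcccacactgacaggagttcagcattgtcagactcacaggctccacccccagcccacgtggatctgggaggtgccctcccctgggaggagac
Serpinb7: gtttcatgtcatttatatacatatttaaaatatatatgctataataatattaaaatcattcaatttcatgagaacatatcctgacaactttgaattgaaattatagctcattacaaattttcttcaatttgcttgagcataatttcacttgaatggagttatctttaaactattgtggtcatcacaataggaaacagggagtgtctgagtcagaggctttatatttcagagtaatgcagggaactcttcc
Kit: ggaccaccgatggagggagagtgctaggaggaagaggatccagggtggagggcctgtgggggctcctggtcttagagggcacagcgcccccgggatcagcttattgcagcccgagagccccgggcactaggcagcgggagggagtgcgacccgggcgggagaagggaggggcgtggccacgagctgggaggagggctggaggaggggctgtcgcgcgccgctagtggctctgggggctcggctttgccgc
The *Cxcl12* window held 1 match, which began 163 bases before the start site. The windows of *Ceacam1*, *Serpinb7*, *Kit* and *Cpm* (chr10:117629250-117629499, plus strand) held none. Of all 32851 RefSeq windows of this length, 1053 (3.21%) held the motif on either strand. A match is a description of the letters in the window and shows no binding.

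*Cpm* lies on chromosome 10 from 117629500 to 117687352. In RefSeq, *Gm24553* overlaps *Serpinb7*, *Gm25709* overlaps *Cpm* and *4732471J01Rik* overlaps *Ceacam1*. The library kit did not mark the strand, so reads of such pairs cannot be told apart where they share bases. *Ceacam1* also has a close paralog, *Ceacam2*, and reads shared by both make its counts uncertain.

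In high CHIR, all 5 genes were higher in both adhesion knockouts than in CTRL, without overlap between libraries. This is the contrast that chose them, so it carries no test here and supports nothing. Of the 16516 genes tested, 9.1% were higher in every α-catenin KO library than in every CTRL library, and 13.3% were so in QCKO. No gene of 16516 was called in either comparison (0% called, limma, adjusted p under 0.05 and a log2 fold change over 0.5 in size), with 928 and 1444 genes at an unadjusted p under 0.05. edgeR also called 0 and 0, and DESeq2 called 4 and 9.

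*Serpinb7* had the largest log2 difference of the 5 genes in both knockouts, with 1 added to each count. The value of *Ceacam1* rests on 4 CTRL reads, so its place in this order is uncertain. Its counts were 960 and 415 in α-catenin KO and 264 and 567 in QCKO, against 37.4 to 72.9 in CTRL. Its log2 difference from CTRL was 3.45 in α-catenin KO and 2.74 in QCKO (SE 0.52 for both). Within a replicate number the ratio to CTRL, with 1 added to each count, was 13.9 and 5.64 in α-catenin KO and 6.91 and 7.68 in QCKO.

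*Kit*, which was high in CTRL in high CHIR, was still higher in the knockouts. It had counts of 2149 and 4013 in α-catenin KO and 3995 and 4585 in QCKO, against 863 to 1877 in CTRL. The log2 difference was 1.07 in α-catenin KO and 1.62 in QCKO (SE 0.34 for both). Replicate 1 of α-catenin KO lay close to its CTRL, with a ratio of 1.14, while the other ratios within a replicate number were 2.40, 4.63 and 2.74.

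*Cxcl12* and *Ceacam1*, both low in CTRL in high CHIR, were less low in the knockouts. *Cxcl12* had counts of 184 and 323 in α-catenin KO and 433 and 380 in QCKO, with log2 differences of 1.49 and 2.22 (SE 0.33 for both). Every one of these values lay far below the lowest low CHIR library, at 1602. On the log2 scale, the mean of α-catenin KO in high CHIR lay 67.3% of the way from CTRL in low CHIR to CTRL in high CHIR, and that of QCKO 51.3%.

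*Ceacam1* had counts of 16.7 and 10.1 in α-catenin KO and 8.45 and 8.42 in QCKO. CTRL in high CHIR had only 4 reads over its 3 libraries, so the ratio is given with its counting error. The ratio of reads per library, corrected for size factor, was 10.1 in α-catenin KO (exact 95% interval 3.44 to 40.0) and 6.52 in QCKO (2.10 to 26.8). These intervals cover the counting error of reads pooled over libraries and not the spread between libraries. The libraries had no molecular barcodes, so even the counting error may be understated. The intervals are no test, because this contrast chose the gene. Every knockout count lay below the lowest CTRL library in low CHIR, at 40.1.

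*Cpm* was the one gene whose CTRL ranges overlapped between CHIR conditions. In high CHIR it had counts of 1842 and 1159 in α-catenin KO and 1583 and 1226 in QCKO, against 505 to 795 in CTRL. The log2 difference was 1.30 in α-catenin KO and 1.23 in QCKO (SE 0.24 for both). Within replicate numbers all 4 ratios lay between 2.29 and 3.06. Compared with low CHIR in the same knockout, *Cpm* was 0.98 higher on the log2 scale in α-catenin KO (SE 0.26) and 0.41 higher in QCKO (SE 0.26).

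**Figure D2:**
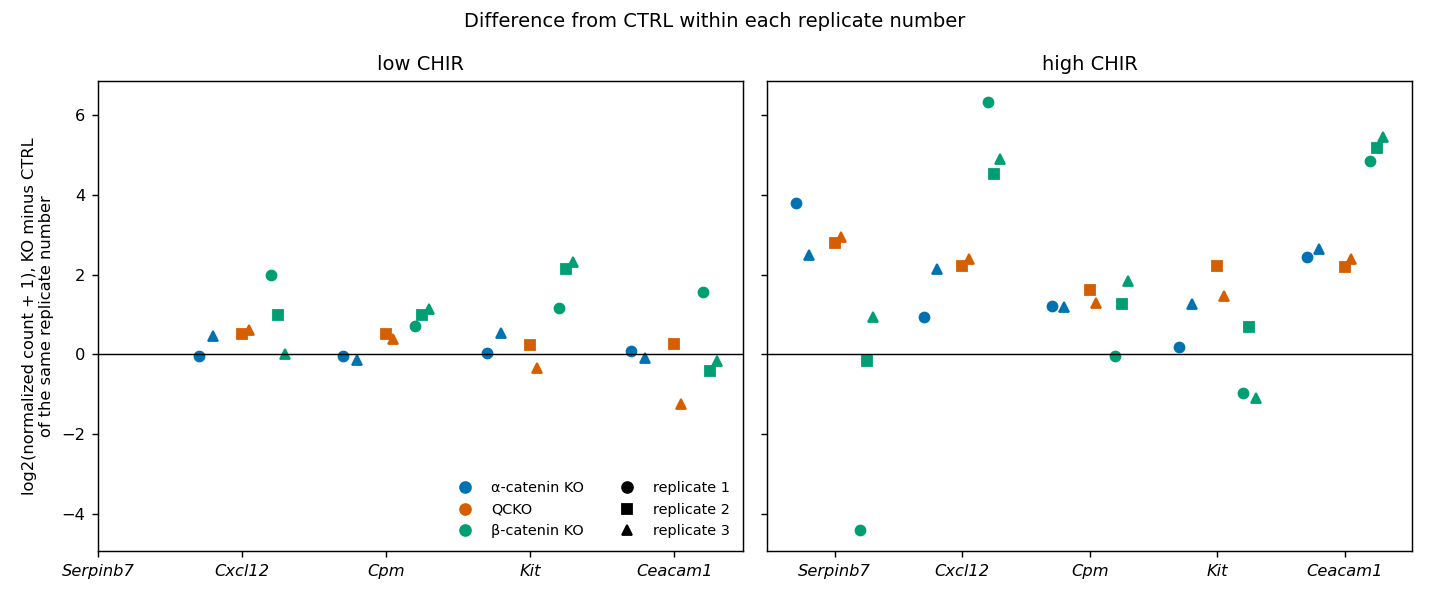
Difference in log2(normalized count + 1) between each knockout library and the CTRL library of the same replicate number, in low CHIR (left) and high CHIR (right). *Serpinb7* is left out on the left because CTRL was at 0 there. The α-catenin KO and QCKO points lie on both sides of 0 or close to it in low CHIR for *Kit* and *Ceacam1*, and all lie above 0 in high CHIR, the contrast that chose the genes. *Ceacam1* points in high CHIR rest on 1 or 2 CTRL reads and so depend on the added 1.

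The markers of other cell types were set beside these values. The summed count of the 6 of 12 ureteric epithelium markers with an identifier was 891 to 1078 in CTRL, 1289 to 2322 in α-catenin KO and 1838 to 2121 in QCKO in high CHIR. Of these, *Gata3* was at 171 to 354, 340 to 702 and 857 to 874, and *Cdh1* (E-cadherin) was at 24.9 to 50.2, 77.3 to 310 and 128 to 254. Against CTRL, 3 of the 6 were higher in every α-catenin KO library (*Wnt11*, *Krt8* and *Cdh1*), as were 9.1% of all genes, and the other 3 overlapped. In QCKO, 4 were higher in every library (those and *Gata3*), as were 13.3% of all genes, *Hoxb7* overlapped, and *Tfap2b* was lower, at 10.9 and 7.48 against 13.6 to 21.2. The summed level thus moved with the 5 genes while its members did not all do so, and their part in the result was not tested. Markers have an identifier only if the authors' comparisons list them, and these include both high CHIR contrasts. Markers that differ there are thus favoured, and their share cannot be set against that of all genes. Of the 6 of 10 NPC markers with an identifier, *Six2* was lower in every library of both knockouts, at 41.2 and 63.5 in α-catenin KO and 27.8 and 44.0 in QCKO against 64.1 to 83.8 in CTRL, and 5 overlapped. Of all genes, 6.82% were lower in every α-catenin KO library and 13.3% in every QCKO library. The part of *Six2* was not tested either. *Tek*, the 1 of 8 endothelial markers with an identifier, was at 89.7 to 177 in CTRL, 92.7 to 383 in α-catenin KO and 221 to 357 in QCKO. *Pmel*, the 1 of 7 mast cell and melanocyte markers with an identifier, bears on *Kit*, which those cells express, and was at 23.8 to 74.8, 23.2 to 34.3 and 27.1 to 38.6. *Meis1*, the 1 of 10 stromal markers, was at 750 to 1090, 949 to 1094 and 890 to 1091. None of the 8 leukocyte markers had an identifier. In bulk libraries, fewer cells of a type and less RNA per cell cannot be told apart.

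In low CHIR, samples that did not enter the choice, none of *Cxcl12*, *Cpm*, *Kit* and *Ceacam1* was called in either adhesion knockout. *Serpinb7* was at or near 0 in all of these libraries and could not be tested there. In α-catenin KO, 0 of 16516 genes were called (0%, limma), with 109 at an unadjusted p under 0.05, 0 by edgeR and 1 by DESeq2. With the replicate number as a block, limma called 1. In QCKO, 1 of 16516 was called (0.00605%), with 266 at an unadjusted p under 0.05, 1 by edgeR, 2 by DESeq2 and 0 with the block. In simulated counts for QCKO in low CHIR, 0 of 200 genes given a log2 difference of 1 passed these thresholds, and 170 of 200 did when it was 2. The changed genes had mean counts above that of *Ceacam1*, and α-catenin KO was not simulated, so neither is covered. In this simulated setting, differences of the smaller size could not be called.

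*Serpinb7* had no read in CTRL or QCKO in low CHIR, and in α-catenin KO it had 0 reads in replicate 1 and 1 read in replicate 3. These are at the floor of 3 reads, so no fold is given. The gene was thus not detected above the floor in any of the 7 libraries, although the same knockouts in high CHIR held counts of 264 to 960. The mean in high CHIR was at least 268-fold higher than in low CHIR in α-catenin KO and at least 151-fold higher in QCKO. Both bounds rest on 2 high CHIR libraries that differ, and were 162-fold without α-catenin KO replicate 1 and 96.2-fold without QCKO replicate 3.

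*Kit* was at 155 and 188 in α-catenin KO and at 164 and 101 in QCKO in low CHIR, against 129 to 152 in CTRL. Both α-catenin KO libraries lay just above every CTRL library, as did those of 6.21% of all genes, and the QCKO libraries lay on both sides. The log2 difference from CTRL was 0.29 in α-catenin KO (95% interval -0.46 to 1.03) and -0.12 in QCKO (-0.87 to 0.63). *Ceacam1* was at 45.6 and 77.2 in α-catenin KO and at 48.6 and 33.7 in QCKO, against 40.1 to 81.5 in CTRL. Its log2 difference was 0.19 (-0.84 to 1.21) in α-catenin KO and -0.35 (-1.38 to 0.67) in QCKO. Its ranges in the knockouts and CTRL overlapped.

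*Cxcl12* was at 2029 and 3551 in α-catenin KO and at 2303 and 3973 in QCKO. The log2 difference was 0.39 (-0.33 to 1.10) in α-catenin KO and 0.56 (-0.16 to 1.27) in QCKO. Replicate 3 was the highest library in CTRL as well as in each adhesion knockout. *Cpm* was at 741 and 737 in α-catenin KO, a log2 difference of -0.06 (-0.58 to 0.47). In QCKO it was at 1039 and 1059, above every CTRL library, with a log2 difference of 0.45 (-0.07 to 0.97), and 9.51% of all genes were likewise higher in every QCKO library. The lowest adjusted p among these comparisons was 0.9998 (limma).

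With equal weight, the mean of both adhesion knockouts in low CHIR differed from CTRL by a log2 value of 0.47 for *Cxcl12* (-0.13 to 1.07), 0.20 for *Cpm* (-0.24 to 0.63), 0.08 for *Kit* (-0.54 to 0.71) and -0.08 for *Ceacam1* (-0.94 to 0.78). None of them was called, nor was any of the 16516 genes (0%, 183 at an unadjusted p under 0.05, and 0 by edgeR and by DESeq2). QCKO against α-catenin KO in low CHIR called 0 of 16516 genes (0%, 189 at an unadjusted p under 0.05, 0 by edgeR, 2 by DESeq2). The log2 difference of QCKO from α-catenin KO was 0.51 for *Cpm* (-0.07 to 1.08), 0.17 for *Cxcl12* (-0.61 to 0.95), -0.40 for *Kit* (-1.22 to 0.42) and -0.54 for *Ceacam1* (-1.66 to 0.58). *Cpm* was higher in both QCKO libraries than in both α-catenin KO libraries, as were 20.3% of all genes.

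**Figure D3:**
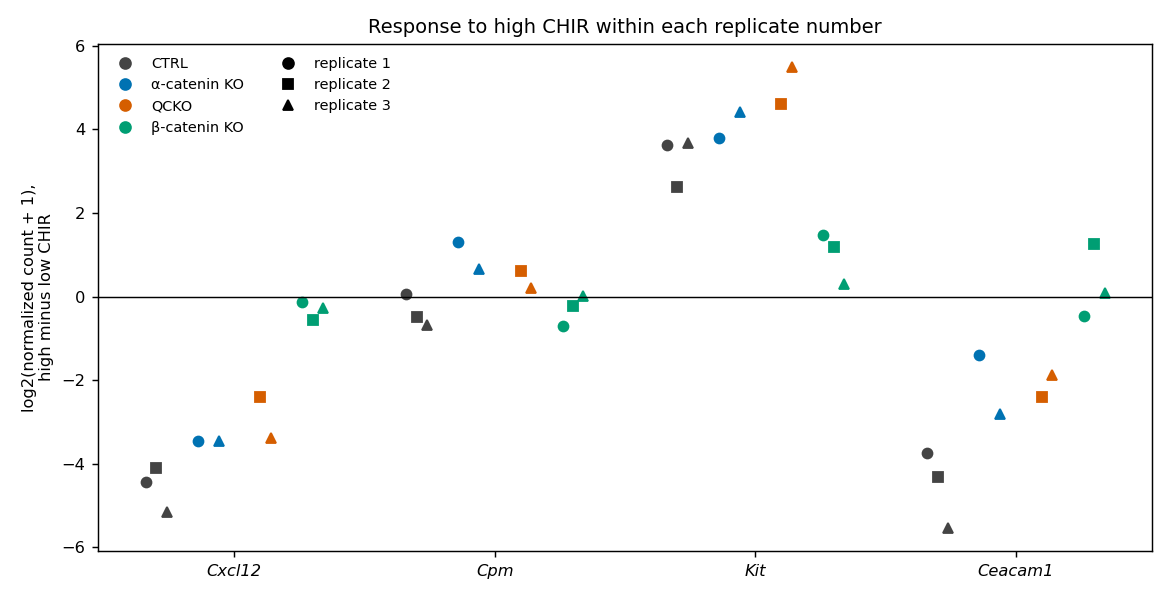
High minus low CHIR difference in log2(normalized count + 1) for each replicate number, by group. *Serpinb7* is left out because most low CHIR libraries were at or near 0. *Ceacam1* in CTRL rests on 1 or 2 reads in high CHIR and so depends on the added 1. The α-catenin KO and QCKO points lie on the side of 0 where CTRL lies for *Cxcl12*, *Kit* and *Ceacam1*, and the β-catenin KO points lie between -0.57 and 1.48 for these genes.

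Across CHIR conditions, the adhesion knockouts kept the direction of CTRL for 4 of the genes. From low to high CHIR, *Kit* was 4.10 higher on the log2 scale in α-catenin KO and 5.04 higher in QCKO (SE 0.38 for both), beside 3.31 in CTRL. *Cxcl12* differed by -3.46 and -2.90 (SE 0.36 for both), beside -4.56 in CTRL. *Ceacam1* differed by -2.11 and -2.14 (SE 0.52 for both), and for CTRL, with 4 reads in high CHIR, no log2 value is given. *Serpinb7* was higher in high CHIR in every library. In α-catenin KO, 24.7% of the 16516 tested were higher in every high CHIR library and 23.4% lower, and in QCKO 27.7% and 28.5%. These responses contain the high CHIR values that chose the genes and were not tested.

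β-catenin is both the Wnt effector and a part of the adhesion complex, and the β-catenin KO libraries in low CHIR were tested against CTRL. *Kit* was called, with counts of 344, 616 and 641 against 129 to 152 in CTRL. It was higher in every library, as were 5.72% of all genes. It rose by a log2 fold change of 1.87 (SE 0.33, limma, adjusted p = 0.0472), one of 11 genes called of 16691 (0.0659%), all of them higher. Without replicate 1, which had the lowest *Kit* value, the log2 fold change was 2.16 (adjusted p = 0.0138). The call sat close to the threshold. It was lost when any 1 of CTRL replicates 1, 2 or 3 or of β-catenin KO replicates 2 or 3 was left out (log2 fold change 1.71 to 1.93, adjusted p 0.134 to 0.283), when only these 2 groups were fitted (adjusted p = 0.387) and after quantile normalization (adjusted p = 0.0521). The number of genes called was 74 with the replicate number as a block and 183 with DESeq2, and *Kit* was called by both. Of the cell type markers with an identifier, *Gata3* was also higher in every library, as were 5.72% of all genes. It was at 148, 187 and 84.9 against 25.4 to 73.7 in CTRL (log2 difference 1.67, SE 0.56, limma, adjusted p = 0.519). *Meis1* was lower in every library, at 1671 to 2121 against 2143 to 2961, as were 5% of all genes. The other 5 ureteric markers overlapped, as did *Pmel*, *Tek* and the 6 NPC markers, and the summed ureteric level was 508 to 1051 against 320 to 1457 in CTRL. The part of these markers in the *Kit* result was not tested.

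*Serpinb7* in low CHIR was detected in β-catenin KO replicates 2 and 3, at 53.0 and 76.1, and had no read in replicate 1 or in CTRL. Its mean was at least 14.2-fold higher than in CTRL, but the spread was wide and it was not called (limma, adjusted p = 0.519). Without replicate 1 the bound was 21.3-fold and the adjusted p 0.0168, while without replicate 3 the bound was 8.73-fold and the adjusted p 0.568, and without replicate 2 the adjusted p was 0.737. On all libraries DESeq2 gave an adjusted p of 0.00818, edgeR 0.246 and the replicate block 0.174. The replicates with *Serpinb7* reads were also those with the higher *Wnt4* counts of 831 and 634.

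*Cpm* was higher in every β-catenin KO library in low CHIR, at 1249, 1445 and 1805 against 730 to 816 in CTRL. It was not called, with a log2 difference of 0.95 (95% interval 0.38 to 1.52, adjusted p = 0.334), or 1.07 without replicate 1 (adjusted p = 0.235). *Cxcl12* was also higher in every library, at 8333, 3181 and 2635 against 1602 to 2594, with a log2 difference of 1.00 (0.01 to 1.999, adjusted p = 0.725). Replicate 1 was far above the others, and without it the difference was 0.49. *Ceacam1* was at 129, 30.0 and 72.9, and overlapped with CTRL at a log2 difference of 0.33 (-0.65 to 1.32, adjusted p = 0.987), or -0.15 without replicate 1. Of all 16691 genes, 5.72% were higher in every β-catenin KO library than in every CTRL library.

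**Figure D4:**
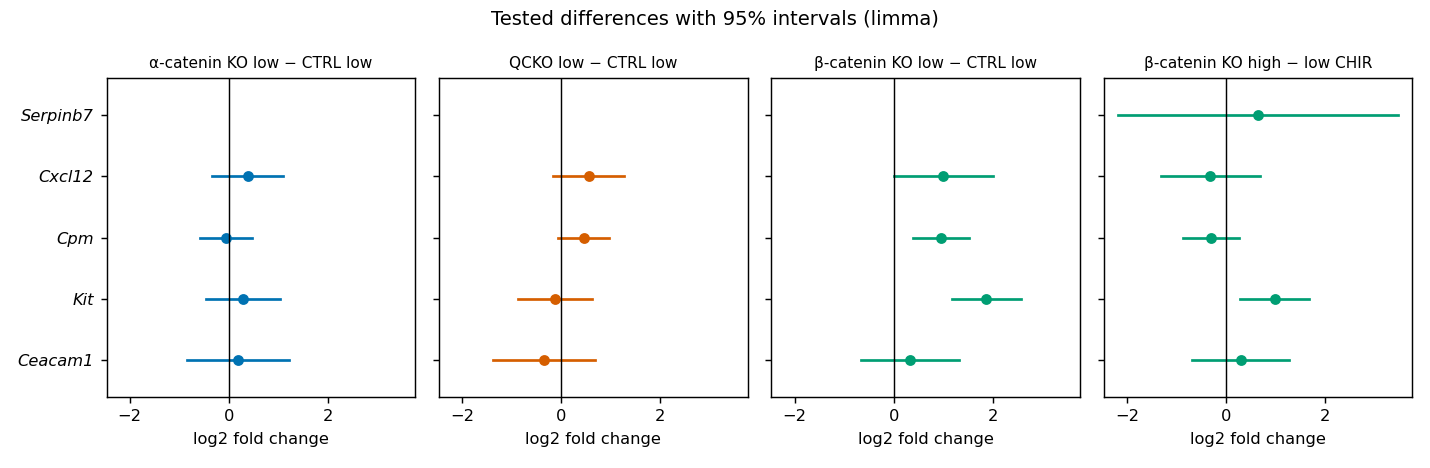
Log2 fold changes (points) with 95% intervals (lines) from limma for 4 tested comparisons, with 2 or 3 libraries in each group. *Serpinb7* is drawn only for high against low CHIR in β-catenin KO, since CTRL in low CHIR had no read, and there its value depends on the added 1. *Kit* in β-catenin KO in low CHIR, at 1.87, is the 1 difference that was called.

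From low to high CHIR within β-catenin KO, none of the 5 genes was called, and 3 of 16691 genes were (0.018%, limma). With the block this number was 40, and with DESeq2 it was 54, again without any of the 5. *Kit* was at 960, 1391 and 788 in high CHIR, above every low CHIR library as for 4.63% of all genes, with a log2 difference of 0.98 (0.29 to 1.68, adjusted p = 0.823). *Cxcl12* stayed at 7635, 2141 and 2182, a log2 difference of -0.32 (-1.32 to 0.67, adjusted p = 0.999). *Ceacam1* was at 93.6, 73.1 and 77.2, a log2 difference of 0.29 (-0.69 to 1.28). *Cpm* was at 769, 1242 and 1809, a log2 difference of -0.30 (-0.87 to 0.26). *Serpinb7* was at 2.31, 33.2 and 140, with the 2.31 standing for 2 reads. Replicate 1 was at or under 2 reads in both CHIR conditions, so no log2 difference is given, and the groups overlapped. Without low CHIR replicate 1, the differences were 0.69 for *Kit*, 0.19 for *Cxcl12*, 0.77 for *Ceacam1* and -0.43 for *Cpm*, and without high CHIR replicate 1 they were 1.03, -0.93, 0.19 and 0.02 in the same order. None was called in either case.

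Beside CTRL in high CHIR, which chose the genes, β-catenin KO is described only. *Cxcl12* was higher in every library, as were 14.8% of genes, by a log2 difference of 5.24 (SE 0.47). *Ceacam1* was higher in every library too, with 236 reads against 4 in CTRL. Its ratio, with counting error only, was 62.5 (24.1 to 231), or 58.3 without replicate 1 (22.3 to 217). *Kit* (-0.45), *Cpm* (1.02) and *Serpinb7* (-1.21) overlapped with CTRL. For *Cpm* the overlap was through replicate 1 alone, at 769 against 505 to 795 in CTRL, with replicates 2 and 3 at 1242 and 1809. Without replicate 1 in high CHIR the differences were 4.63 for *Cxcl12*, -0.41 for *Kit*, 1.34 for *Cpm* and 0.26 for *Serpinb7*. For *Cxcl12* and *Ceacam1*, β-catenin KO in high CHIR lay at the level of CTRL in low CHIR or above it, whereas α-catenin KO and QCKO lay between the CTRL conditions.

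By their mean counts the groups were ordered differently for each gene. For *Cxcl12* the order from the lowest was CTRL, α-catenin KO and QCKO in high CHIR, none of which overlapped with its neighbour, and then CTRL, α-catenin KO and QCKO in low CHIR and β-catenin KO in high and low CHIR, each of which overlapped with the next. *Ceacam1* had CTRL, QCKO and α-catenin KO in high CHIR at the bottom without overlap, and the remaining groups overlapped from neighbour to neighbour. For *Kit* the order was QCKO, CTRL, α-catenin KO and β-catenin KO in low CHIR, then β-catenin KO, CTRL, α-catenin KO and QCKO in high CHIR. Overlapping neighbours were QCKO and CTRL in low CHIR, β-catenin KO and CTRL in high CHIR, and α-catenin KO and QCKO in high CHIR. *Serpinb7* ended with QCKO and α-catenin KO in high CHIR, which overlapped with each other and with no other group. For *Cpm* the lowest groups were CTRL in high CHIR and α-catenin KO and CTRL in low CHIR, and all groups above them overlapped in turn.

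Over the 20 libraries, the log2 values of *Cxcl12* and *Ceacam1* correlated at r = 0.94 and those of *Serpinb7* and *Kit* at r = 0.91. *Cxcl12* correlated at -0.65 with *Serpinb7* and at -0.62 with *Kit*, and *Cpm* at 0.23 to 0.47 with the other 4. Libraries of a group share their treatment and the genes were picked from the same libraries, so these values are a description. Among the 16690 other genes, and of those with a symbol, the genes most like *Serpinb7* were *Cthrc1* (r = 0.97), *Lef1* (0.96), a TCF/LEF factor, and *Krt39* (0.96). Those most like *Kit* were *Rasl11a* (0.97), *Sv2b* (0.96) and *Aldh1a3* (0.95), a retinoic acid synthesizing enzyme. In low CHIR, the means of these genes were also higher in β-catenin KO than in CTRL. They were 716 against 351 for *Rasl11a*, 37.4 against 3.99 for *Sv2b* and 1138 against 188 for *Aldh1a3*. For the genes most like *Serpinb7* they were 746 against 40.5 (*Cthrc1*), 418 against 67.2 (*Lef1*) and 39.5 against 0.65 (*Krt39*). Higher levels there were thus not particular to *Kit*. Those most like *Cxcl12* were *Peg3* (0.95), *BC030500* (0.95) and *Pcolce* (0.95), an enhancer of procollagen processing. Those most like *Ceacam1* were *Afap1* (0.94), *Cxcl12* (0.94) and *Pamr1* (0.93). *Cpm* had no close match, with *Afg1l* (0.82) and *5033430I15Rik* (0.80) nearest.

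Partners and relatives of the 5 genes were taken from lists of which few genes have an identifier, so they are described by counts only. Over all genes, between 0% and 0.0659% were called in the 6 tested comparisons. Of the Kit pathway, 4 of 19 genes had one, and 0 of 4 were called in any of the 6 tested comparisons. *Kitl*, the ligand of Kit, was at 1039 to 1128 in CTRL in low CHIR and 98.3 to 331 in high CHIR, the opposite direction to *Kit*. In high CHIR it was at 206 and 181 in α-catenin KO and 167 and 296 in QCKO, within the CTRL range. In β-catenin KO in low CHIR, *Kitl* was at 1192 to 1609, above every CTRL library, as were 5.72% of all genes. It was not called there (log2 difference 0.32, SE 0.40, limma, adjusted p = 0.979). From low to high CHIR in β-catenin KO it differed by a log2 value of -1.36 (SE 0.40, limma, adjusted p = 0.586).

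Of the chemokines and receptors of Cxcl12, 2 of 15 had an identifier and neither was called. *Ackr3*, the atypical receptor that takes up Cxcl12, was at 71.5 to 232 in CTRL in low CHIR and 404 to 763 in high CHIR, while *Cxcl12* was lower there. In high CHIR it was at 687 and 544 in α-catenin KO and 773 and 410 in QCKO, overlapping with CTRL. Of the serpins, 3 of 21 had an identifier, 2 were tested and 1 was called, in β-catenin KO in low CHIR, where 0.0659% of all genes were. *Serpinb8*, another ovalbumin-type serpin, rose in β-catenin KO in low CHIR by a log2 fold change of 3.39 (SE 0.54, limma, adjusted p = 0.0199), with counts of 126, 324 and 146 against 10.8 to 24.99 in CTRL. This call was lost with the compared groups alone (adjusted p = 0.371) and without CTRL replicate 2 or 3 or β-catenin KO replicate 2 or 3 (log2 fold change 2.98 to 3.55, adjusted p 0.0720 to 0.197), and without β-catenin KO replicate 1 the log2 fold change was 3.66 (adjusted p = 0.0149). Of the metallocarboxypeptidases 2 of 16 were tested, of the immunoglobulin-type adhesion molecules 6 of 19, and of YAP targets 8 of 22, and none was called in a tested comparison.

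In high CHIR, described without a test, 9 of the 26 partners and relatives with an identifier were higher in every α-catenin KO library than in every CTRL library (9.1% of all genes were), 9 were so in QCKO (13.3%), and none was lower in every library. Identifiers come from comparison tables that hold 4316 of the 31130 genes, so these 26 are not a random sample of their lists. The authors' comparisons include CTRL against each adhesion knockout in high CHIR, with thresholds. A gene can thus have an identifier because it differed in this contrast. The share of the 26 therefore cannot be set against that of all genes. Higher in every library of both knockouts were *Serpinb8*, *Cpxm1*, *Icam1*, *L1cam*, *Nectin2*, *Ccn1* and *Myof*. *Serpinb8* was at 146 and 85.7 in α-catenin KO and 86.9 and 104 in QCKO, against 41.7 to 61.2 in CTRL. The adhesion molecule gene *Nectin2* was at 523 and 931 in α-catenin KO and 572 and 1106 in QCKO, against 176 to 416 in CTRL.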

How the data were processed

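mRNA of 20 libraries was prepared with a SMARTer Ultra Low kit, which marks neither strand nor molecule, and sequenced as paired reads. The submitters' notes name STAR, featureCounts, Salmon and DESeq2, and the builds GRCm38, mm10 and GRCh38 without a role. The deposited signal is the read count of each gene divided by the library's size factor by the authors, called normalized count here. Whole reads (tolerance 0.01) were recovered from it for edgeR and DESeq2. The authors' comparison tables hold log2 ratios and p-values, and only their gene symbols were used (4316 of 31130 genes). All per-sample columns were mapped (0 left out of use).

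Values were tested as log2(normalized count + 1) with limma 3.58.1 (trended empirical Bayes, R 4.3.3) and Benjamini-Hochberg adjustment over all genes with a mean of at least 10. Called genes had a log2 fold change beyond 0.5 in either direction with an adjusted p below 0.05. CTRL, α-catenin KO and QCKO were fitted together (14 libraries, 16516 genes), and comparisons with β-catenin KO on all 20 libraries (16691 genes). The alternatives were edgeR 4.0.16, DESeq2 1.42.0, pseudocounts of 0.25 and 5, no filter, quantile normalization, the compared groups alone, the replicate number as a block, and leaving out each library. The replicate number is a date shared in the sample titles. Over 58 pairs of libraries with the same number, deviations from the group means correlated at 0.0199 to 0.721 (median 0.199), above 0.1 in 48.

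The tests were checked on simulated counts. The members and lists were chosen with earlier results of these data known. The text names the 5 genes, the 3 genes with a symbol that correlate best with each (1 of them is not reported here), and list members that were called or are a ligand, receptor or marker of a described gene or cell type. Promoter windows come from RefSeq, GRCm38.p6, matched by symbol (5 of 5 genes).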

Additional observations from a re-analysis of the deposited data

How the results depend on the processing

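Over the 6 tested comparisons, 26 results were recomputed under 352 alternatives, of which 328 kept direction and side of the threshold. All 15 reversals came from leaving out 1 library, and none of them was of a called gene. The other 208 alternatives kept 205. The cause of the changes was not tested.

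The number of genes called changed as follows. α-catenin KO in low CHIR had 1 with the replicate block and 1 with DESeq2. QCKO in low CHIR had 0 with a pseudocount of 0.25, 0 with the compared groups alone, 0 with the replicate block, 2 with DESeq2, and 0 whichever library was left out. QCKO against α-catenin KO had 1 with a pseudocount of 5 and 2 with DESeq2. β-catenin KO in low CHIR had 0 with the compared groups alone, 74 with the replicate block, 183 with DESeq2 and 0 to 53 when 1 library was left out. High against low CHIR in β-catenin KO had 7 without a filter, 0 with the compared groups alone, 40 with the replicate block, 54 with DESeq2, and 1 to 4 when 1 library was left out. The replicate block changed no call of the 5 genes.

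For β-catenin KO in low CHIR, *Kit* was at 1.85 after quantile normalization and 1.87 with the compared groups alone, and at 1.71 to 2.16 when 1 library was left out. *Serpinb7*, whose log2 value depends on the pseudocount, was at 4.01 with a pseudocount of 1, 5.33 with 0.25, 2.52 with 5, 8.48 with edgeR, 7.86 with DESeq2 and 2.88 to 6.01 when 1 library was left out. *Ceacam1* ran from -0.15 to 0.89.

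Leaving out 1 library gave log2 values on both sides of 0 also in α-catenin KO in low CHIR for *Cxcl12* (-0.018 to 0.79) and *Ceacam1* (-0.18 to 0.56), in QCKO in low CHIR for *Kit* (-0.46 to 0.23), in the mean of both for *Kit* (-0.088 to 0.26) and *Ceacam1* (-0.27 to 0.24), and in QCKO against α-catenin KO for *Cxcl12* (-0.23 to 0.58). The same held for high against low CHIR in β-catenin KO for *Serpinb7* (-1.36 to 2.11, and 0.65 with a pseudocount of 1, 1.19 with 0.25 and 0.26 with 5), *Cxcl12* (-0.93 to 0.19), *Cpm* (-0.60 to 0.016) and *Ceacam1* (-0.26 to 0.77), and for *Serpinb7* in β-catenin KO against CTRL in high CHIR (-2.45 to 0.26). Depth limits most the values of *Serpinb7* in CTRL, α-catenin KO and QCKO in low CHIR and *Ceacam1* in CTRL in high CHIR, which rested on few or no reads.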
